A study of Homo sapiens with 3 samples.

Results

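The 10 genes VIL1, EZR, PLS1, ESPN, EPS8, CDHR2, CDHR5, USH1C, MYO7B and MYO1A encode structural proteins of the brush border, the carpet of microvilli on the luminal face of an absorptive intestinal cell. They were taken by symbol from the gene rows of 3 single-cell RNA-seq libraries. Each symbol matched 1 of 33538 rows. No measured value entered the rule that chose them, though earlier results of these data were known at the time. The libraries came from co-cultures of Caco-2 and HT29, both established human colorectal carcinoma lines, which were grown separately, seeded together at 9:1 into Transwell inserts (cups with a porous floor) and harvested on day 23. Control 1 and control 2 were untreated, and LPS 1 received 1 ng/ml lipopolysaccharide (LPS) from Escherichia coli O111:B4 on day 22 for 24 h. Each library was 1 Transwell, so the spread between libraries covers wells seeded from the same stocks, and there was 1 treated well. Cells were trypsinized and thawed before capture, and suspensions of low viability were depleted of dead cells. The labels do not assign a cell to Caco-2 or to HT29.

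Microvilli are finger-like protrusions held up by a bundle of parallel actin filaments. Villin, plastin-1 and espin tie the filaments together, EPS8 sits at the tip where filaments grow, and ezrin and myosin-1a hold the bundle to the membrane. The protocadherins CDHR2 and CDHR5 bind one another between the tips of neighbouring microvilli, and are anchored to actin by harmonin (USH1C), ANKS4B and the motor myosin-7b. This adhesion complex packs microvilli into the ordered array of a mature enterocyte.

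The genes lie on 7 chromosomes of GRCh38, with positions here from GENCODE release 44. VIL1 (villin, ENSG00000127831) lies at chr2:218419121-218453295 on the plus strand, and PLS1 (plastin-1, ENSG00000120756) at chr3:142596393-142713664 on the plus strand. ESPN (espin, ENSG00000187017) lies at chr1:6424776-6461367 on the plus strand, and EPS8 (ENSG00000151491) at chr12:15620134-15882329 on the minus strand. EZR (ezrin, ENSG00000092820) lies at chr6:158765741-158819368 and MYO1A (myosin-1a, ENSG00000166866) at chr12:57028517-57051198, both on the minus strand. CDHR2 (ENSG00000074276) lies at chr5:176542511-176595974 on the plus strand, and CDHR5 (ENSG00000099834) at chr11:616577-626078 on the minus strand. USH1C (ENSG00000006611) lies at chr11:17493895-17544416 on the minus strand, and MYO7B (myosin-7b, ENSG00000169994) at chr2:127535683-127637729 on the plus strand. No 2 of them overlap. The assay reads the 3′ ends of transcripts, so isoforms are not told apart.

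Sequences upstream of transcription starts were taken from RefSeq (GRCh38.p14) for the genes that had the largest difference between cell lines in each direction (MYO1A and PLS1) and for the steepest pair along the enterocyte score (CDHR2 and MYO7B). The RefSeq table matched 6 of the 10 genes, all but VIL1, ESPN, EPS8 and CDHR5. Each run is 250 bases, ends at the base before a start, and reads 5′ to 3′ along the gene. Capitals mark matches on either strand to letters known to be bound by transcription factors of the intestine. For CDX2, a homeobox factor of intestinal identity, the letters searched were CNATAAA. For the nuclear receptor HNF4A, another factor of this tissue, they were CAAAGNNCA. For factors of the GATA family, such as GATA4, they were AGATAA. No match overlapped another. A consensus of HNF1 was searched for as well.
MYO1A, chr12:57051199-57051448, minus strand: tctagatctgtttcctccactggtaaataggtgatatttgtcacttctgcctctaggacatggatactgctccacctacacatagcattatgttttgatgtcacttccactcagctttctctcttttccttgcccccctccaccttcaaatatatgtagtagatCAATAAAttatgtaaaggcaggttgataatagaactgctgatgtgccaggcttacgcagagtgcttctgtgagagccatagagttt
MYO1A, chr12:57050130-57050379, minus strand: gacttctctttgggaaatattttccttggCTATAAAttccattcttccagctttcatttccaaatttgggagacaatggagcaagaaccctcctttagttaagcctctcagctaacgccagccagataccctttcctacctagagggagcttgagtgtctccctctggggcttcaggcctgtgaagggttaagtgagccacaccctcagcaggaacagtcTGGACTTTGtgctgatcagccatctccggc
PLS1, chr3:142596143-142596392, plus strand: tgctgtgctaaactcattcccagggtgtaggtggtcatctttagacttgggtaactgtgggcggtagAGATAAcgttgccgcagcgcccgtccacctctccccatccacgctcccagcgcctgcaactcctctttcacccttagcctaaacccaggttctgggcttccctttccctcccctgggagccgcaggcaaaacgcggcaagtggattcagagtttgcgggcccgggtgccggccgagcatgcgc
PLS1, chr3:142623174-142623423, plus strand: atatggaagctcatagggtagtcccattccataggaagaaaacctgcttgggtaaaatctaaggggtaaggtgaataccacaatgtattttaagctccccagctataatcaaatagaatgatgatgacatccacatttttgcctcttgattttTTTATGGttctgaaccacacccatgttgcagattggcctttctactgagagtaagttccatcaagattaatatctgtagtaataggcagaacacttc
CDHR2, chr5:176542261-176542510, plus strand: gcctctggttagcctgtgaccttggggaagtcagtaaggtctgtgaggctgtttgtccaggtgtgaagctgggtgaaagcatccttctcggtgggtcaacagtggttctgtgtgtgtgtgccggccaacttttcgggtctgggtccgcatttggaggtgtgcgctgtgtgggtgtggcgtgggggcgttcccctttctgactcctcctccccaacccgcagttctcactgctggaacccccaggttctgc
MYO7B, chr2:127535433-127535682, plus strand: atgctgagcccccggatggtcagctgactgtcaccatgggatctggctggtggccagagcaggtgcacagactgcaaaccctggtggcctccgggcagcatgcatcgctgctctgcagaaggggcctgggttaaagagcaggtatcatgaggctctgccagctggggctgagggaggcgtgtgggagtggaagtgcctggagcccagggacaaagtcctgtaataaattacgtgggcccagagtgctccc

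The upstream MYO1A window held the CDX2 letters at bases 86 to 80 before the start. The downstream MYO1A window held them at bases 221 to 215, and the HNF4A letters at bases 30 to 22. In PLS1, a GATA match stood at bases 183 to 178 of the most upstream window and a CDX2 match at bases 97 to 91 of the next. A further PLS1 window, not printed (chr3:142656647-142656896), held none of the letters searched for. Over all 35116 RefSeq windows of this length, 8.93% held the CDX2 letters, 4.44% the HNF4A letters, 9.17% the GATA letters and 0.105% the HNF1 consensus. No letters searched for were found in the windows printed for CDHR2 and MYO7B. The same held for a further window of each that is not printed (chr5:176549092-176549341 and chr2:127619755-127620004). These matches are a description of the letters in the windows, and factor binding was not measured.

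The libraries held between 5811 and 6838 barcodes and between 24185467 and 33893707 unique molecular identifiers (UMIs, 1 per captured RNA molecule). After the minimums on UMIs and genes and the removal of likely doublets, 4633 to 4989 cells were kept per library, with a median of 3572 to 5455 UMIs per cell. LPS 1 was the shallowest library and control 1 the deepest. Pairs of libraries shared 9 to 11 barcodes, of which 4 to 6 were kept cells in both. Levels below are CPM (a gene's UMIs per 1000000 UMIs), from UMIs summed over the cells of a group in a library, with the SD over the 3 libraries. Differences are log2 ratios from edgeR's quasi-likelihood test on those sums, scaled by TMM. Their standard errors were derived from the ratio and its F statistic. The library was a block, except where LPS was compared with control within a line, which had no block. The p-values are Benjamini-Hochberg adjusted over all genes tested.

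To ask which cell line carried each gene, cells were assigned by the balance of UMIs from the study's lists of HT29-typical and Caco-2-typical genes (391 and 740 genes used). The balance was bimodal in each library, and a cell was called at a posterior of 0.95 or more. VIL1 and EZR stand on the Caco-2 list and EPS8 on the HT29 list, so these members were left out of the call. In this way 3966, 3987 and 3980 Caco-2-line cells and 633, 937 and 791 HT29-line cells were found in control 1, control 2 and LPS 1. HT29-line cells made up 13.7%, 18.8% and 16.3% of the kept cells, with exact 95% intervals of 12.7 to 14.7%, 17.7 to 19.9% and 15.3 to 17.4%, which cover counting error only. The markers of undifferentiated HT29 cells summed to 1243 to 1642 CPM in HT29-line and 27.9 to 41.9 in Caco-2-line cells, with 9 of 9 markers higher in each library. The 12 enterocyte markers summed to 589 to 878 in HT29-line and 11811 to 15586 in Caco-2-line cells. None of these markers was taken off the lists, so any that stands on a list took part in the call. The sums therefore describe the called cells and are no independent check of the call.

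The brush border genes did not follow one line. Myosin-1a, espin, CDHR2, villin and CDHR5 were lower in HT29-line cells. Plastin-1, EPS8, ezrin and myosin-7b were higher there, and harmonin did not pass the test. Thus 9 of the 10 genes passed, 4 higher and 5 lower, beside 72.6% of the 14014 genes tested, 34.6% of which were higher and 38.0% lower. At a change of at least 2-fold, 2 members were higher and 5 lower, beside 18.2% and 21.8% of all genes. The median absolute log2 difference was 1.18 over the members and 0.77 over all genes tested. Passing the test was common among all genes, so the counts do not set the members apart, and the sizes carry the description.

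**Figure D1:**
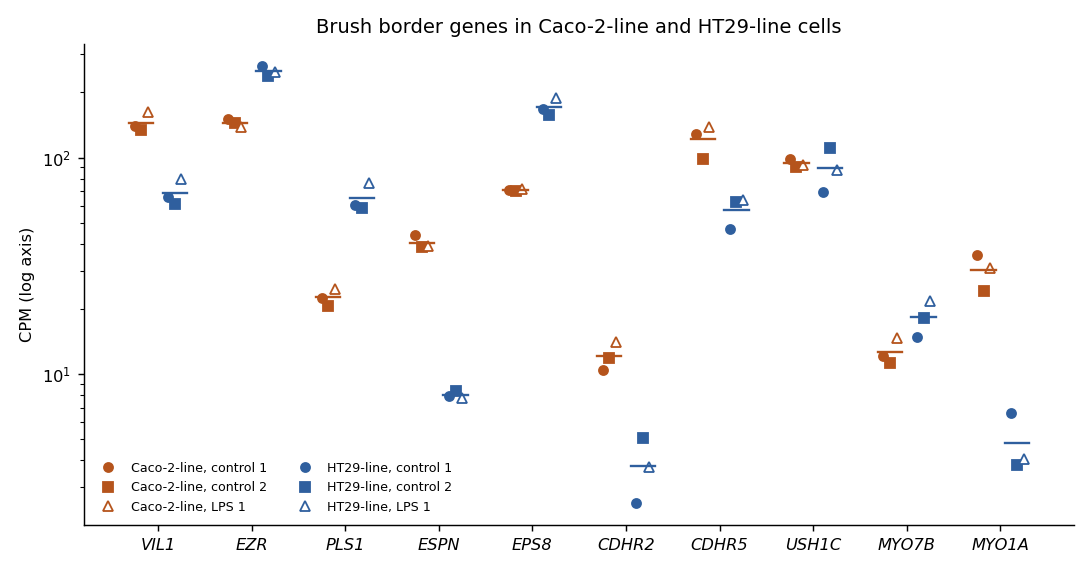
CPM (log axis) of the 10 brush border genes in Caco-2-line cells (orange) and HT29-line cells (blue), 1 point per library (circle, control 1; square, control 2; open triangle, LPS 1) and a line at the mean. Points of the lines stand apart for each gene except USH1C, whose HT29-line values (69.2 to 111) span those of Caco-2-line cells (90.8 to 98.9). Those of MYO7B barely stand apart, as its highest Caco-2-line value nearly meets its lowest HT29-line value. The share of all genes whose points stand apart was not counted, so this does not set the members apart.

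Among the proteins that bundle actin, the members went in opposite directions. VIL1 stood at 139.8, 134 and 162 CPM in Caco-2-line cells of control 1, control 2 and LPS 1, and at 65.6, 60.8 and 79.3 in HT29-line cells. ESPN stood at 43.7, 38.7 and 39.0 in Caco-2-line and at 7.89, 8.35 and 7.78 in HT29-line cells. PLS1 showed the reverse, with 22.5, 20.7 and 24.7 in Caco-2-line and 60.3, 58.2 and 76.2 in HT29-line cells. The groups did not overlap for any of the 3 genes, though the share of all genes without overlap was not counted. The log2 difference, HT29-line minus Caco-2-line, was -1.15 ± 0.09 for VIL1 (adjusted p = 4.49e-10), -2.40 ± 0.14 for ESPN (adjusted p = 6.74e-12) and 1.45 ± 0.10 for PLS1 (adjusted p = 9.05e-11). HT29-line cells thus held 2.22-fold less villin and 5.28-fold less espin transcript, but 2.73-fold more plastin-1 transcript.

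EPS8, which caps and bundles filaments at the microvillus tip, followed plastin-1. Its level was 71.1, 69.9 and 71.9 in Caco-2-line and 168, 157 and 188 in HT29-line cells, a log2 difference of 1.20 ± 0.08 (adjusted p = 1.39e-10). The 2 proteins that tie the actin core to the membrane differed from each other. EZR stood at 150.3, 144 and 139 in Caco-2-line and at 265, 237 and 249 in HT29-line cells, and MYO1A at 35.4, 24.3 and 30.9 against 6.62, 3.80 and 4.04. Ezrin transcript was 1.66-fold higher in HT29-line cells (log2 difference 0.73 ± 0.08, adjusted p = 7.12e-08), although EZR is on the study's Caco-2 list. Myosin-1a transcript was 6.49-fold lower (log2 difference -2.70 ± 0.17, adjusted p = 1.81e-11), which was the largest difference of the 10 genes.

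With all cells included the adhesion complex was split as well, though the direction of MYO7B did not hold in each setting. CDHR2 stood at 10.4, 11.9 and 14 CPM in Caco-2-line and at 2.54, 5.06 and 3.73 in HT29-line cells (log2 difference -1.73 ± 0.22, adjusted p = 5.74e-07). CDHR5, its partner across the gap between microvilli, stood at 129, 98.7 and 139 against 46.6, 62.5 and 63.5 (log2 difference -1.14 ± 0.12, adjusted p = 4.66e-08). Both protocadherins were thus lower in HT29-line cells of each library. MYO7B, the motor of the complex, went the other way at 12.1, 11.3 and 14.7 in Caco-2-line and 14.8, 18.2 and 21.8 in HT29-line cells (log2 difference 0.46 ± 0.14, adjusted p = 0.00821). USH1C, the scaffold, stood at 98.9, 90.8 and 92.7 against 69.2, 111 and 87.4, higher in HT29-line cells of control 2 and lower in the other libraries (log2 difference -0.16 ± 0.12, adjusted p = 0.228).

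The calls for MYO7B and USH1C rested on single libraries and on the cells included. Without control 2 the difference of MYO7B was 0.36 (adjusted p = 0.0643) and that of USH1C -0.37 (adjusted p = 8.18e-04), and without control 1 that of USH1C was 0.05. Cells in S or G2M phase made up 41.9 to 47.9% of Caco-2-line but 11.1 to 12.5% of HT29-line cells. When they were left out of both lines, an alternative chosen after seeing the data, MYO7B was at -0.24 (adjusted p = 0.160) and USH1C at -0.46 (adjusted p = 0.00519), while the other 8 genes kept their direction and call. DESeq2 gave MYO7B 0.46 (adjusted p = 0.0793).

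RNA set free by broken cells can enter other droplets, and its amount was not measured here. The enterocyte markers in HT29-line cells serve as a yardstick, without telling free RNA from other sources of their UMIs. In HT29-line cells APOA4, an apolipoprotein of absorptive cells, stood at 3.05%, 4.15% and 5.09% of its Caco-2-line level in control 1, control 2 and LPS 1, and the 12 markers ranged from 2.00% (CUBN, control 1) to 13.9% (ANPEP, LPS 1). The corresponding values were 18.7%, 15.6% and 13.1% for MYO1A, 18.1%, 21.6% and 19.9% for ESPN and 24.4%, 42.5% and 26.6% for CDHR2. The MYO1A value of LPS 1 lay within the range of the markers, and those of ESPN and CDHR2 lay above it in each library. CDHR5 at 36.1 to 63.3% and VIL1 at 45.4 to 49.0% lay further above. Any of the 12 markers on the Caco-2 list also took part in the call of the lines, so their percentages are not independent of it. How much of the low MYO1A level in HT29-line cells was free RNA was not tested.

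Cells with at least 1 UMI gave the same order for the strongest genes. After thinning each cell to 2000 UMIs, which left out up to 355 Caco-2-line and 107 HT29-line cells of a library, VIL1 was seen in 25.0%, 23.8% and 26.9% of Caco-2-line cells and in 10.9%, 10.6% and 15.5% of HT29-line cells. EZR was seen in 26.1%, 22.6% and 23.6% against 41.5%, 39.2% and 37.1%. MYO1A was seen in 7.31%, 5.23% and 5.96% against 1.90%, 0.814% and 0.877%. APOA4, an enterocyte marker, was seen in 3.48%, 3.14% and 4.39% of HT29-line cells and in 36.0%, 31.5% and 32.1% of Caco-2-line cells. APOA4 is far more abundant than MYO1A, so their shares are not on one scale, and the levels relative to Caco-2-line cells given above are the closer comparison. Before thinning, at median depths of 3560.0 to 5466 UMIs in Caco-2-line and 3550.0 to 5394 in HT29-line cells, VIL1 was seen in 43.6 to 51.7% against 20.4 to 29.1%.

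To ask how the genes vary with enterocyte features, Caco-2-line cells of each library were ranked by a score, the mean log level of 12 enterocyte markers (apolipoproteins, fatty acid and retinol binding proteins, ANPEP and others), and split into 3 equal groups, of which the highest (high-score cells) was compared with the lowest (low-score cells). No brush border gene is in the score. Each group held 1322 to 1329 cells per library, with similar depth (median 3356 to 5409.5 UMIs in low-score and 3594 to 5339 in high-score cells). The enterocyte markers took 2.34 to 2.80% of the UMIs of high-score cells and 0.340 to 0.547% of those of low-score cells. S and G2M cells made up 19 to 28.8% of high-score and 54.3 to 60.9% of low-score cells.

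All 10 brush border genes were higher in high-score cells with TMM scaling, and ezrin reversed with total UMI scaling. Of the 12841 genes tested, 58.8% passed in either direction and 30.1% were higher. At a change of at least 2-fold, 7 of the 10 passed beside 8.99% of all genes. The median log2 difference was 1.52 over the members and 0.00 over all genes tested. The genes formed a wide range, from MYO7B, CDHR2 and CDHR5, which were over 11-fold higher on the TMM scale, through MYO1A, ESPN, USH1C and VIL1, to EPS8, PLS1 and EZR, which differed by less than 1.5-fold.

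**Figure D2:**
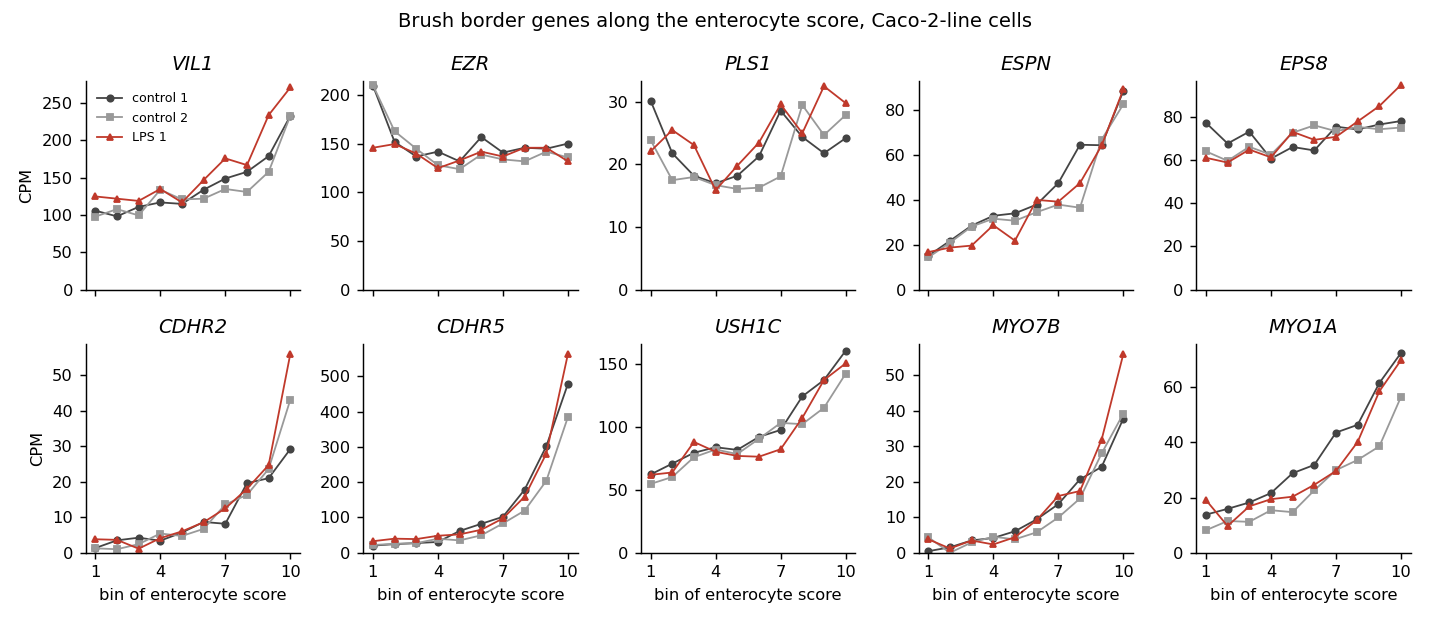
CPM of each gene (1 panel each, axis from 0) in 10 equal bins of the Caco-2-line cells of control 1 (dark circles), control 2 (grey squares) and LPS 1 (red triangles), ordered by the enterocyte score from lowest (1) to highest (10). CDHR5 went from 20.4 to 479 in control 1, from 22.0 to 385 in control 2 and from 32.8 to 564 in LPS 1. EZR went from 210.0 to 150.3, from 210.3 to 136 and from 146.0 to 132 in these libraries. It already stood at 137, 145 and 140.0 in bin 3, so its fall in the controls lay mostly in the lowest bins.

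The steepest genes were the adhesion complex. MYO7B stood at 2.54, 2.69 and 2.47 CPM in low-score cells of control 1, control 2 and LPS 1 and at 26.6, 26.3 and 32.6 in high-score cells, a log2 difference of 3.73 ± 0.15 (adjusted p = 1.22e-10). CDHR2 stood at 2.91, 1.90 and 2.66 against 21.8, 26.9 and 31.2 (log2 difference 3.65 ± 0.17, adjusted p = 5.34e-10). CDHR5 stood at 24.5, 27.4 and 38.2 against 292, 223 and 311 (log2 difference 3.51 ± 0.10, adjusted p = 3.76e-12). The groups were far apart in each library, and these differences ranked above at least 99.2% of all genes tested. USH1C, which scaffolds the same complex, stood at 71.4, 64.1 and 73.2 against 136, 118 and 127, and its log2 difference was 1.17 ± 0.06 (adjusted p = 3.02e-09). USH1C was thus at 64.1 to 73.2 CPM in low-score cells, in which CDHR2 and MYO7B stood between 1.90 and 2.91.

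In the highest of the 10 bins the protocadherins and myosin-7b were still climbing. MYO1A, ESPN, USH1C, VIL1 and, by less, EPS8 also rose from bin 9 to bin 10 in each library, while PLS1 and EZR did not rise in all. CDHR2 went from 21.0, 23.6 and 24.7 in bin 9 of control 1, control 2 and LPS 1 to 29.2, 43.1 and 56.0 in bin 10. MYO7B went from 24.2, 28.0 and 31.9 to 37.8, 39.2 and 56.0. In the lowest 3 bins CDHR2 stayed between 1.00 and 4.25 and MYO7B between 0 and 4.39, near the limit of what these libraries resolve.

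Myosin-1a and espin formed the next step. MYO1A stood at 16.2, 11.4 and 15 in low-score and at 57.0, 41.7 and 52.4 in high-score cells (log2 difference 2.12 ± 0.09, adjusted p = 2.23e-10). ESPN stood at 22.7, 23.4 and 19 against 69.4, 59.4 and 65.0 (log2 difference 1.87 ± 0.09, adjusted p = 8.26e-10). VIL1, the classic marker of the brush border, changed less, at 108, 106 and 119 against 185, 167 and 218 (log2 difference 1.07 ± 0.06, adjusted p = 3.82e-09). Villin transcript was thus already at 97.9 to 125 CPM in the lowest bin of the score.

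Plastin-1, EPS8 and ezrin differed least. PLS1 stood at 22.5, 19.5 and 22.4 in low-score and at 23.9, 26.4 and 28.3 in high-score cells (log2 difference 0.57 ± 0.10, adjusted p = 2.73e-04). EPS8 stood at 70.5, 61.1 and 62.4 against 76.3, 75 and 85.5 (log2 difference 0.57 ± 0.07, adjusted p = 1.01e-05). EZR stood at 161, 164 and 145 against 145, 139 and 142, lower in high-score cells of each library on this scale, while the TMM-scaled log2 difference was 0.15 ± 0.06 (adjusted p = 0.0490). The scaling decides this direction. With total UMIs in place of TMM, chosen after the values were seen, the median log2 difference over all genes was -0.30, 26.6% rather than 51.3% of the calls were higher in high-score cells, and EZR was at -0.15 (adjusted p = 0.0476). No direction is therefore read for ezrin, while the other 9 genes were higher on both scales. Without S and G2M cells PLS1 was at 0.37 (adjusted p = 0.0539) and EZR at 0.18 (adjusted p = 0.0605), and the other 8 passed.

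**Figure D3:**
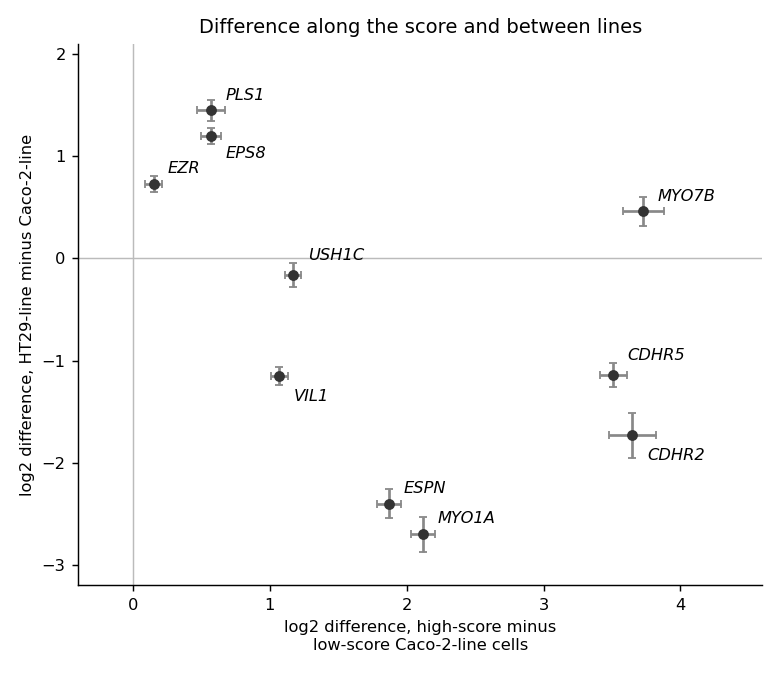
Log2 difference (TMM-scaled, with SE bars) between high-score and low-score Caco-2-line cells (x) and between HT29-line and Caco-2-line cells (y) for the 10 brush border genes. PLS1, EPS8 and EZR lie at the upper left, with 0.57 or less on x and 0.73 or more on y, and MYO7B alone combines a large value on x (3.73) with a positive one on y (0.46). That value of MYO7B on y turned negative without S and G2M cells.

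The comparisons share the Caco-2-line cells, so their values are set side by side without a test. PLS1, EPS8 and EZR had the smallest differences along the score and were higher in HT29-line cells. Of the other 7 genes, MYO7B was higher in HT29-line cells, USH1C did not pass and 5 were lower. The call of MYO7B was lost without control 2 and with DESeq2, and its direction turned without S and G2M cells. MYO7B stood at 14.8 to 21.8 CPM in HT29-line cells, between low-score (2.47 to 2.69) and high-score (26.3 to 32.6) Caco-2-line cells. CDHR2, at 2.54 to 5.06 in HT29-line cells, lay near low-score cells (1.90 to 2.91). MYO1A, at 3.80 to 6.62, and ESPN, at 7.78 to 8.35, lay below low-score Caco-2-line cells in each library.

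Cells of the 3 libraries were also clustered, without the brush border genes and the wider lists among the features. This gave 12 clusters, named only from fixed markers by a rule set after the clusters had been seen. Named clusters were enterocyte-like (ECLC, 2067 cells), transit amplifying-like (TALC, 1416), intestinal stem-like (ISCLC, 548), enteroendocrine-like (EECLC, 179), fetal gene expressing (FGEC, 73), undifferentiated HT29 (U-HT29, 2394) and goblet-like (GCLC, 223) cells. The other 5 clusters are given by a leading gene. U-HT29 and GCLC held nearly all HT29-line cells, and at least 95.9% of the cells of each other cluster were Caco-2-line. GCLC also had enteroendocrine genes among its leading ones. The stem-like name rests on ALB, AFP and FGG among the leading genes of that cluster. PLA2G2A and OLFML3, of the same marker list, were among those of the DKK1-led cluster. The paper also reports AFP and ALB in a transit amplifying-like group. Comparisons between clusters are descriptions of levels, with no test. The division into clusters depends on the setting. With log normalization the cluster led by DKK1 and PLA2G2A took the stem-like name, and at a resolution of 0.8 the cluster with ITGA5 among its 10 leading genes took the name ECLC. Log normalization also gave the name U-HT29 to a cluster of 443 cells with SPRR1B, SLPI and UCA1 among its leading genes. These genes were also among those of the PAGE4-led cluster, 95.9% of whose cells were Caco-2-line. Whether the cells are the same was not tested.

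**Figure D4:**
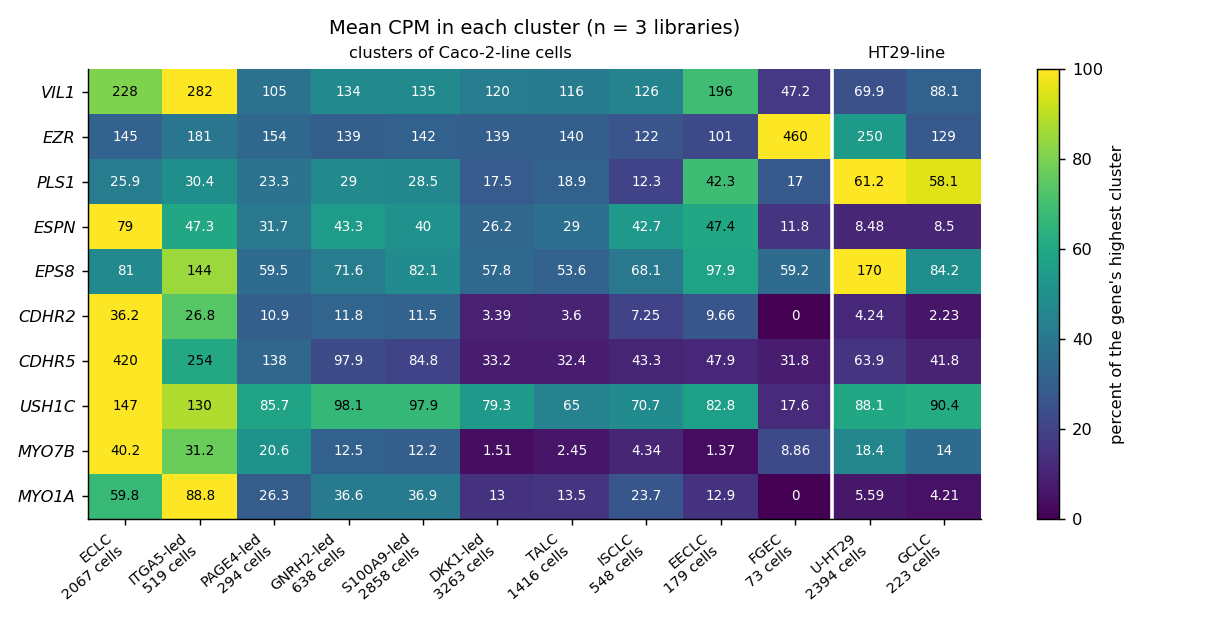
Mean CPM of each gene (rows) in each cluster (columns, with cell numbers), printed in the cells. Colour gives the level as a percentage of that gene's highest cluster, so colours compare clusters within a row. CDHR2, CDHR5, MYO7B, USH1C and ESPN peak in ECLC, VIL1 and MYO1A in the ITGA5-led cluster, EZR in FGEC, and PLS1 and EPS8 in U-HT29.

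Enterocyte-like cells and a cluster led by ITGA5, SLC26A2 and SORL1 (519 cells) held the highest levels of the graded genes. CDHR5 stood at 419.7 ± 73.6 (SD, n = 3 libraries) in ECLC and 254 ± 58.4 in the ITGA5-led cluster, and the ranges did not overlap. CDHR2 stood at 36.2 ± 8.43 and 26.8 ± 2.05, MYO7B at 40.2 ± 8.77 and 31.2 ± 7.62 and USH1C at 147 ± 8.50 and 129.7 ± 20.4, with overlapping ranges for these 3 genes. ESPN was highest in ECLC (79.0 ± 1.46) and the next cluster, EECLC (47.4 ± 16.1), stood apart from it. In contrast, MYO1A was highest in the ITGA5-led cluster (88.8 ± 17.5), apart from ECLC (59.8 ± 9.66). VIL1 was at 282 ± 23.5 in the ITGA5-led cluster and 228 ± 31.2 in ECLC, whose ranges overlapped.

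At the other end, the DKK1-led cluster (3263 cells) and TALC held MYO7B at 1.51 ± 0.669 and 2.45 ± 0.610, and CDHR2 at 3.39 ± 0.990 and 3.60 ± 0.740. VIL1 was still at 119.9 ± 6.94 and 116 ± 12.5 in these clusters. The cluster named stem-like, which was led by ALB and AFP, had 7.25 ± 3.43 of CDHR2 and 42.7 ± 1.17 of ESPN. AFP stood at a mean of 648 CPM in high-score and 69.8 in low-score Caco-2-line cells, and ALB at 454 and 118. The stem-like name therefore does not place this cluster at the low end of the score. CDHR5 stood at 33.2 ± 1.57 in the DKK1-led cluster, 32.4 ± 9.21 in TALC and 43.3 ± 8.76 in ISCLC. Villin was thus measured in cells with few UMIs of CDHR2 and MYO7B, while CDHR5 was at a lower level there than in ECLC.

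Enteroendocrine-like cells carried villin with few UMIs of myosin-7b, a trait shared with other Caco-2-line clusters. VIL1 stood at 196 ± 35.5 there, next after the ITGA5-led cluster and ECLC and overlapping with ECLC. MYO7B stood at 1.37 ± 2.38, which rests on 1 UMI in the whole cluster, where 3 UMIs would give 5.17 CPM. Its range overlapped those of the DKK1-led cluster (1.51 ± 0.669) and TALC (2.45 ± 0.610), which also carried villin. The other adhesion genes lay within the range of the other Caco-2-line clusters, with CDHR5 at 47.9 ± 24.2, CDHR2 at 9.66 ± 8.63 and USH1C at 82.8 ± 8.56. EZR was at its lowest in these cells (101 ± 1.72), below the range of the next cluster. With 179 cells in 3 libraries, the level of PLS1 there ran from 16.6 to 69.1.

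The fetal gene expressing cells stood at the extremes for several genes. EZR was at its highest there, 460 ± 77.6 CPM, apart from the next cluster, U-HT29 (250.5 ± 14.5). USH1C was at its lowest, 17.6 ± 11.1, apart from the next lowest cluster, TALC (65.0 ± 6.08). No UMI of MYO1A or CDHR2 was counted in the 73 cells, whose 513108 UMIs allow a level of up to 5.85 CPM in each case. The level of VIL1 ran from 3.53 to 133 between libraries. Control 1, control 2 and LPS 1 gave only 21, 44 and 8 of these cells.

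Within the HT29 line, the U-HT29 and goblet-like clusters stood apart in EPS8 and EZR. EPS8 stood at 169.7 ± 11 in U-HT29 and 84.2 ± 17.8 in GCLC, and EZR at 250.5 ± 14.5 and 129 ± 9.95, without overlap between the ranges of either gene. PLS1 (61.2 ± 8.87 and 58.1 ± 2.20), USH1C (88.1 ± 22.6 and 90.4 ± 17.8) and MYO7B (18.4 ± 3.59 and 14 ± 8.72) overlapped, as did MYO1A (5.59 ± 2.79 and 4.21 ± 1.73), CDHR5 (63.9 ± 11.1 and 41.8 ± 21.0) and CDHR2 (4.24 ± 1.36 and 2.23 ± 3.86). GCLC also held 23 Caco-2-line cells and 35 in neither line among its 223, and U-HT29 held 89 and 114 among its 2394. How much these cells gave to the levels was not tested.

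Genes most like each member were sought over 35 sums of UMIs (clusters by library), among 8464 genes, by Pearson's r of log levels. The points share libraries, depth and the division into lines, and r is given as a description. CDHR5 was most like MUC17 (a membrane mucin of the brush border), SORL1 and SLC11A2 (an iron transporter), each at 0.91. CDHR2 was most like GUCY2C (the guanylin receptor of the apical membrane), MEP1A (a brush border protease) and CDHR5, each at 0.89. MYO1A was most like MIR194-2HG and GUCY2C, at 0.94, and GPX3, at 0.93. ESPN was most like A1CF and CYP27A1, at 0.93, and CHPT1, at 0.92. MYO7B was most like GABRA2 (0.92), HHLA2 (0.91) and SLC39A4, a zinc transporter (0.89). VIL1 was most like LPGAT1, ZFP36L2 and DNAJC22, each at 0.90, and USH1C like PAK1 (0.92), PIGZ (0.87) and POF1B (0.85). Ezrin kept other company, with MYOF, SP6 and LY6E at 0.87. The closest genes to PLS1 (EXT1 and CCDC186, 0.82, and TTC39A, 0.81) and EPS8 (SSFA2 and STEAP2, 0.82, and PDK1, 0.81) were less alike.

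Between members, r ran from 0.89 for CDHR2 with CDHR5 down to -0.77 for VIL1 with EZR over the same 35 sums. VIL1 had 0.85 with USH1C, MYO1A had 0.83 with ESPN and 0.82 with CDHR2, and MYO7B had 0.83 with CDHR5. PLS1 and EPS8 had 0.61 with each other.

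A list of 5 further genes, drawn up as possible partners of the adhesion complex, was followed as well. A place of MYO7A, WHRN or USH1G in the enterocyte complex is not claimed here. Between lines all 5 were tested, 3 were lower in HT29-line cells and none higher, beside 38.0% and 34.6% of all genes. The median log2 difference was -1.08 beside -0.06 over all genes. ANKS4B, the scaffold that binds myosin-7b and harmonin, stood at 22.1, 21.1 and 24.5 in Caco-2-line and 5.09, 6.84 and 9.33 in HT29-line cells (log2 difference -1.76 ± 0.17, adjusted p = 1.60e-08). MYO7A was at -0.90 ± 0.25, and USH1G, at 2.00 CPM or less on average in either line, was at -3.44 ± 0.72. Between high-score and low-score cells, 4 of the listed genes were tested and 3 were higher, beside 30.1% of all genes. These were CALML4, a light chain of myosin-7b (1.67 ± 0.12), ANKS4B (1.23 ± 0.10) and USH1G (2.20 ± 0.36), and MYO7A did not pass. CALML4 is on the study's HT29 list, yet was at 19.1 in HT29-line and 21.0 in Caco-2-line cells on average (adjusted p = 0.193).

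Paralogues of the members also divided between the lines. Of 18, 15 were tested, of which 5 were higher and 10 lower in HT29-line cells, with a median of -0.52. Of all genes tested, 34.6% were higher and 38.0% lower, so passing was common. Moesin (MSN), a relative of ezrin, stood at 112, 92.1 and 113 CPM in HT29-line and 1.36, 3.14 and 2.27 in Caco-2-line cells (log2 difference 5.52 ± 0.17). LCP1, the plastin of blood cells, stood at 0.254, 2.03 and 1.24 against 31.7, 30.7 and 34.6 (log2 difference -4.83 ± 0.26), opposite to PLS1. EPS8L1 was at 3.34 ± 0.11, in the direction of EPS8, and VILL, a relative of villin, at -2.40 ± 0.21. MSN and EPS8L1 are on the HT29 list and LCP1 on the Caco-2 list, and like the members these genes were left out of the call of the lines. With TMM scaling 9 of 15 paralogues were higher and 2 lower along the score (median 0.38), and with total UMI scaling 6 were higher and 3 lower (median 0.08). Among all 12841 genes tested with TMM scaling, 3871 were higher and 3676 lower. With total UMI scaling 26.6% of 8457 calls were higher. The largest TMM-scaled changes, which passed with both scalings, were those of MSN (1.52 ± 0.42), EPS8L2 (1.17 ± 0.08), EPS8L3 (1.07 ± 0.12) and MYO1D (0.95 ± 0.08). MSN there was at a mean of only 3.37 in high-score and 1.58 in low-score cells.

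Of 28 other microvillus and terminal web genes, 27 were tested, and 18 were higher and 4 lower in HT29-line cells (median 0.59). The shares over all genes tested were 34.6% higher and 38.0% lower. KRT20 led (4.84 ± 0.12), at 565, 545 and 579 CPM in HT29-line and 24.6, 16.8 and 15.3 in Caco-2-line cells, followed by PDZD3 (-3.55 ± 0.30), SLC9A3R2 (2.36 ± 0.10) and KRT8 (2.14 ± 0.07). KRT20 and SLC9A3R2 are on the HT29 list and KRT8 on the Caco-2 list. With TMM scaling 19 were higher and 3 lower along the score (median 0.44), and with total UMI scaling 12 were higher and 8 lower (median 0.15). Of all 12841 genes tested, 3871 were higher and 3676 lower with TMM scaling. With total UMI scaling 26.6% of all calls were higher. The largest TMM-scaled changes, which passed in the same direction with both scalings, were KRT20 (2.83 ± 0.12), PDZD3 (1.90 ± 0.13), the terminal web myosin MYH14 (1.52 ± 0.07) and SLC9A3R1, which binds ezrin (1.23 ± 0.06). The terminal web is the actin and keratin mat in which microvilli are rooted.

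LPS was compared with the controls in each line, to ask whether the brush border genes respond to a bacterial product. No member passed in either line. In Caco-2-line cells 0 of 10 passed beside 0.231% of 15584 genes, and in HT29-line cells 0 of 10 beside 0.226% of 11926 genes. So few of all genes passed in either line that the absence of calls among the members says little about them. The difference between the lines' responses passed for 0 of 10 members, beside 0.192% of 15076 genes. This rests on 1 treated Transwell, which was assumed to vary as the controls do, and a p that misses the threshold does not show that the levels were alike.

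The members' log2 differences ran from -0.16 to 0.25 in Caco-2-line cells, with standard errors of 0.14 to 0.19. EZR and ESPN were at -0.16 ± 0.15 (adjusted p = 0.891 for both), and CDHR2 was at 0.25 ± 0.19 (adjusted p = 0.846). The level of CDHR5 in LPS 1, 139 CPM, lay above those of control 1 (129) and control 2 (98.7), as did that of VIL1, 162 beside 139.8 and 134. For CDHR5 the control wells differed from each other by more than LPS 1 did from control 1, but by less than it did from control 2. For MYO1A the level in LPS 1 lay between those of the controls. For VIL1 LPS 1 lay further from either control than the controls did from each other. In HT29-line cells the differences ran from -0.42 ± 0.55 for MYO1A to 0.34 ± 0.29 for MYO7B, with adjusted p of 1.000 for each member. None of the genes of the wider lists passed in either line.

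**Figure D5:**
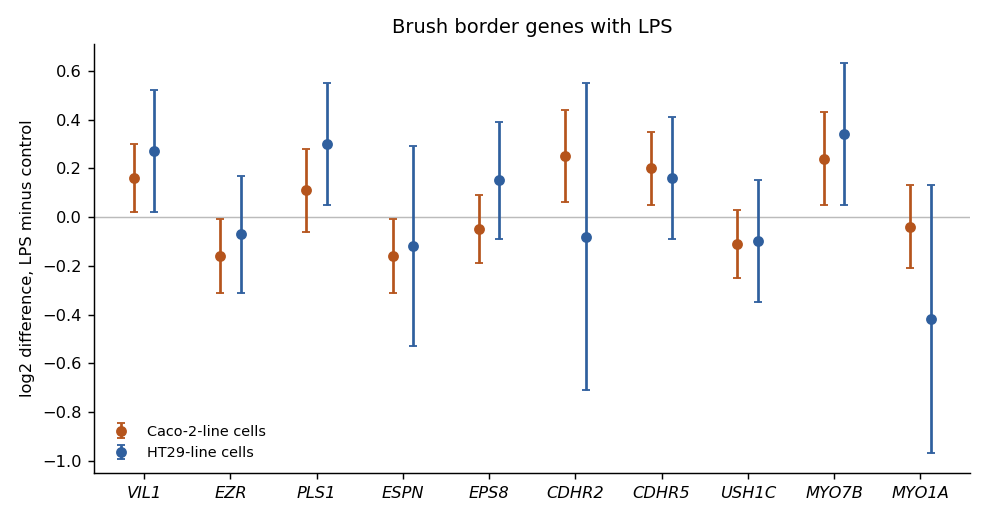
Log2 difference between LPS 1 and the 2 controls (bars, SE) for the 10 genes in Caco-2-line (orange) and HT29-line cells (blue). Values lie between -0.42 and 0.34, and no gene passed the test in either line.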

How the data were processed

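The authors aligned 10x Genomics 3′ reads to GRCh38 with Cell Ranger (3.1.0 per the file headers; the study's resource table names another version) and deposited UMI counts per gene and barcode, without normalization. The study's minimums (2250 UMIs and 770 genes in control 1, 1500 and 700 in control 2) were applied, those of control 2 also to LPS 1, with at most 20% mitochondrial UMIs. Scrublet marked 0 cells, so the 6% with the highest scores were removed (decided on seeing that 0). Cells were clustered after SCTransform and anchor integration (Seurat 5.3.0, 3000 features, 50 components, 15 neighbours, Leiden at 0.5). Counts summed per group and library were tested with edgeR 4.0.16 (filter on low counts, threshold 0.05). DESeq2 1.42.0 and 45 alternatives were tried, plus 3 chosen after seeing the data. Scripts were checked on simulated data.

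The text names all 10 members, up to 4 genes of each wider list with the largest change past the threshold in a comparison, and the 3 genes most like each member. Likeness used log2 of CPM plus 5, over genes at a mean of 10 or more and sums of at least 20 cells. The members and lists were chosen with earlier results of these data known. With 1 LPS library the test has 1 residual degree of freedom. Labels do not say that wells were independent cultures beyond the Transwell.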

Additional observations from a re-analysis of the deposited data

How the results depend on the processing

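Between lines, the 8 genes other than MYO7B and USH1C kept direction and call under all 12 alternatives. USH1C ranged from -0.37 to 0.05 when 1 library was left out, and was at -0.23 (adjusted p = 0.0359) without the filter. MYO7B was at -0.24 without S and G2M cells. Between high-score and low-score cells, 8 genes kept direction and call under all 14 alternatives, PLS1 missed the threshold in 1 and EZR in 8, and EZR reversed to -0.15 with total UMI scaling. There DESeq2 called 4817 genes beside 7547. Without the library as a block, 6156 genes were called along the score and 9749 beside 10177 between lines, and EZR was at 0.14 (adjusted p = 0.287), the only member whose call changed.

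For LPS in Caco-2-line cells 36 genes were called, against 5 with DESeq2, 17 with the minimums of control 1, 21 with the line taken from the cluster and 21 with all kept cells. In HT29-line cells it was 27, against 5 with DESeq2 and 0 without the filter, and for the difference between lines 29, against 16 without doublet removal. Among members, none called, EPS8 turned to 0.02 with all kept cells, CDHR2 to 0.41 with the cluster's line, and in the difference between lines ESPN to -0.19 and USH1C to -0.01 without doublet removal. The causes were not tested. With 1 control left out the LPS comparison is 1 well against 1, a value with no test. No paired analysis was possible because there was 1 treated well and the labels pair it with no control well. Of 140 class levels, 31 moved by over 1 SD with log normalization or resolution 0.8, among them ESPN in ISCLC (42.7 to 29.1 with log normalization) and MYO1A in ECLC (59.8 to 70.2).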
